A study of Rattus norvegicus with 20 samples.

Results

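Mt2A, Slc30a1 and Slc39a14 encode a metallothionein and a pair of zinc transporters, and their RNA was followed across an oral dose series of isodecyl diphenyl phosphate (IDDP) in rat liver. The 3 genes were chosen from earlier results of these same arrays, so their levels and changes are given as descriptions and no test of them is used as support. The array annotation assigned 4 probe sets to exactly 1 of these symbols, out of 31042 tested probe sets, and the 20826 of those with exactly 1 symbol stood for 14217 genes. Mt2A and Slc30a1 had 1 probe set each, and Slc39a14 had 2. A value is the brightness of a probe set on the log2 scale, so a difference of 1 is a doubling.

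IDDP is an aryl phosphate ester used as a flame retardant and plasticiser. Male Harlan Sprague-Dawley rats were given it by gavage in corn oil, once a day for 4 days, and the left lobe of the liver was taken on day 5. The vehicle group held 5 rats that received corn oil alone, and each of 5 IDDP groups held 3 rats, at 66, 132, 263.6, 527.1 and 1054.2 mg/kg. In molar terms the series ran from 0.169 mmol/kg at the lowest dose to 2.7 mmol/kg at the highest. Each rat gave 1 array, and the groups differed in dose alone according to the labels. RNA quality differed between arrays: the 3′ minus 5′ difference of the actin and Gapdh control probe sets, which grows as RNA degrades, was highest in replicate 2 at 132 mg/kg (3.25) and replicate 2 at 263.6 mg/kg (2.47). Values that move without these 2 arrays are given beside the results.

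Metallothioneins are small proteins rich in cysteine that bind zinc and copper, and the liver is one of their main sites of synthesis. Their genes are switched on by the zinc-sensing transcription factor MTF1, which binds metal response elements in their promoters, and they are also known to respond to glucocorticoids and to oxidative stress. Slc30a1 encodes ZnT1, which exports zinc across the plasma membrane and is itself a target of MTF1 in mouse. Slc39a14 encodes ZIP14, which brings zinc, iron that is not bound to transferrin, and manganese into hepatocytes, and which responds to interleukin-6 in mouse liver.

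The bases before the start of the genes are shown because metal response elements lie there in metallothionein genes. RefSeq promoters of the rat assembly GRCr8 were matched by symbol for 2 of the 3 genes, Mt2A and Slc30a1, but not Slc39a14, and Mt1 was added as the metallothionein gene next to Mt2A. The 250 bases upstream are printed 5′ to 3′ in the direction of transcription. They lie at chr19:10838709-10838958 on the minus strand for Mt2A, at chr13:106021769-106022018 on the plus strand for Slc30a1, and at chr19:10832976-10833225 on the minus strand for Mt1. Capitals mark matches on either strand to the core of the metal response element, TGCACNC or TGCGCNC, and to the core of the antioxidant response element, TGACNNNGC, to which NRF2 binds.
Mt2A: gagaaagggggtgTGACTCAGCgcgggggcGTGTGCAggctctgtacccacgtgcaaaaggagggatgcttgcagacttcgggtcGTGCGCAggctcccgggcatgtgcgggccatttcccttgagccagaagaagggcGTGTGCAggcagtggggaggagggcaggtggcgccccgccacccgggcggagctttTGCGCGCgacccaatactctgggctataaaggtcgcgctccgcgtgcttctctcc
Slc30a1: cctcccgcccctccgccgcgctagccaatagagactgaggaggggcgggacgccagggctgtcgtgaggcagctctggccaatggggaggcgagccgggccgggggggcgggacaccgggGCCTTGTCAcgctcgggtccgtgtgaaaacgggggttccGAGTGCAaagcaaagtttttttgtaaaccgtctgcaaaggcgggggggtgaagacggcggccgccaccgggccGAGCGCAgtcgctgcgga
Mt1: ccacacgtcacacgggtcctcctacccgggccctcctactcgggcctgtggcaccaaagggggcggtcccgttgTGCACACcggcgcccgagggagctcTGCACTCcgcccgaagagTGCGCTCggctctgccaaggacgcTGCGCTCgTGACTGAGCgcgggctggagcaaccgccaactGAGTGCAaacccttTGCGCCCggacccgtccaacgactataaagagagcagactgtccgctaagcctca
The metal response element core matched 4 times upstream of Mt2A, 2 times upstream of Slc30a1 and 6 times upstream of Mt1. Over 33469 rat promoters read in the same window, 20.6% held at least 1 such match, 4.9% at least 2, 0.266% at least 4 and 0.0269% at least 6. In Mt2A the matches began at positions -220, -165, -111 and -55 from the annotated start, and the match nearest the start was on the coding strand. The antioxidant response element core matched 1 time in each of the 3 promoters, as it did at least 1 time in 10.1% of all of them, and no base belonged to matches of both kinds. These matches are a description of letters and not of bound sites.

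Mt2A was the member whose level differed with dose. Its probe set (1388271_at) read 11.37, 13.51, 12.98, 12.85 and 12.58 in the 5 vehicle rats. It read 13.05, 13.71 and 13.73 at 66 mg/kg, and 13.91, 13.74 and 13.31 at 132 mg/kg. Of these rats, 2 at each dose lay above every vehicle rat, so both groups overlapped the vehicle group. At 263.6 mg/kg the 3 rats read 14.38, 13.72 and 13.98, at 527.1 mg/kg 14.11, 14.00 and 14.19, and at 1054.2 mg/kg 14.29, 14.11 and 14.25. All 9 of these rats lay above every vehicle rat. How many of all tested probe sets separate dosed from vehicle rats in this way was not counted. Nothing is therefore read from such separation, here or for the genes below. The plot of the 4 probe sets by rat shows these values.

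**Figure D1:**
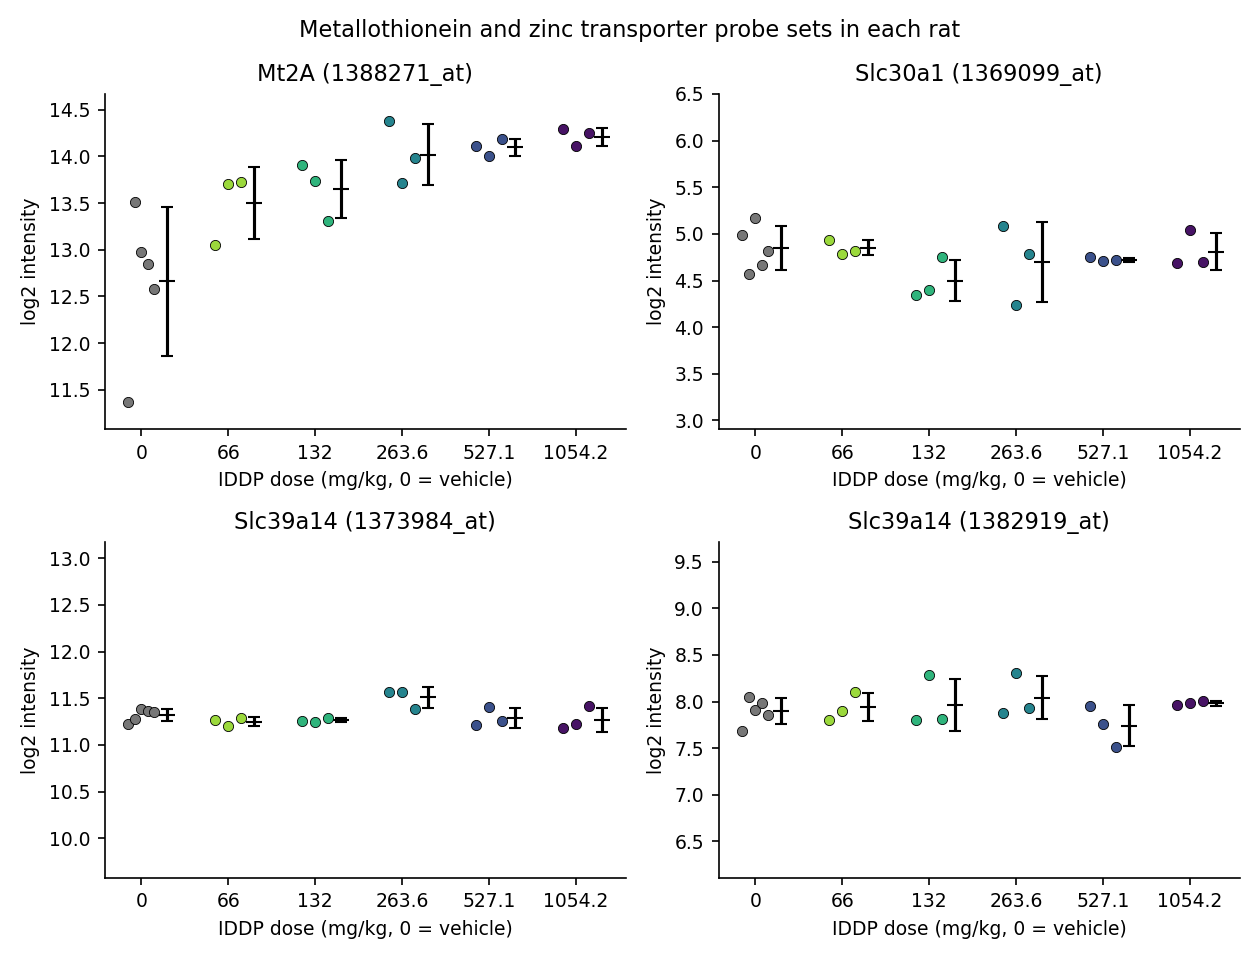
Log2 level of each of the 4 probe sets in every rat, by dose in mg/kg with the vehicle at the left; points are rats and bars are group means. For Mt2A all rats at 263.6 mg/kg and above sit above the highest vehicle rat (13.51), whereas the other 3 probe sets overlap the vehicle rats in every group.

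The group mean of Mt2A was 12.66 ± 0.80 in vehicle rats (SD, n = 5). It was 13.50 ± 0.39 at 66 mg/kg, 13.65 ± 0.31 at 132 mg/kg, 14.02 ± 0.33 at 263.6 mg/kg, 14.10 ± 0.09 at 527.1 mg/kg and 14.21 ± 0.10 at 1054.2 mg/kg, with the SD over 3 rats. The differences from vehicle were 0.84, 0.99, 1.37, 1.44 and 1.56 in order of dose, each with a standard error of 0.30. On a linear scale these are 1.79-fold, 1.99-fold, 2.58-fold, 2.71-fold and 2.94-fold. In these group means the step to 66 mg/kg was the largest, at 0.84, and the later steps were 0.15, 0.37, 0.07 and 0.12. The size of that first step rested in part on vehicle replicate 1, without which it was 0.52. The steps to 66, 263.6 and 1054.2 mg/kg slightly exceeded the larger SD of the groups they join, which was 0.80, 0.33 and 0.10, whereas the steps to 132 and 527.1 mg/kg were smaller than it.

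The vehicle rats were the most scattered group for this gene. Their standard deviation of 0.80 was larger than that of 99.9% of all tested probe sets in the same 5 rats, while the groups at 527.1 and 1054.2 mg/kg had standard deviations of 0.09 and 0.10. Vehicle replicate 1, at 11.37, was the lowest of all 20 rats. Without that rat the differences from vehicle were 0.52, 0.67, 1.04, 1.12 and 1.24 in order of dose, and all of them stayed positive. Without the 2 arrays of highest 3′ to 5′ difference those at 132 and 263.6 mg/kg were 0.95 and 1.52. The level was also close to the top of the scale: Mt2A was brighter than 99.5% of the tested probe sets, and its highest value of 14.38 compares with 15.35 for the brightest value in the table. Whether probe brightness was still proportional to RNA at that level was not tested.

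As a description, the change in Mt2A was among the larger ones on the array in size, at rank 39, 80, 23, 53 and 53 of 31042 from the lowest to the highest dose. With limma and a Benjamini-Hochberg adjusted p under 0.05 as the threshold, the number of the 4 probe sets past it was 0 at 66 mg/kg, where 0.00644% of all tested probe sets passed in either direction. It was 0 at 132 mg/kg, where 0.0677% of all passed, and 0 at 263.6 mg/kg, where 0.428% passed. It was 1, Mt2A, at 527.1 mg/kg, where 1.68% passed, and the same probe set at 1054.2 mg/kg, where 3.3% passed. Mt2A was also the 1 of 4 in the trend over dose rank, with a slope of 0.31 ± 0.05 per dose step (SE), and 5.05% of all probe sets passed there. Since the genes were chosen with these contrasts known, nothing is read from those counts.

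**Figure D2:**
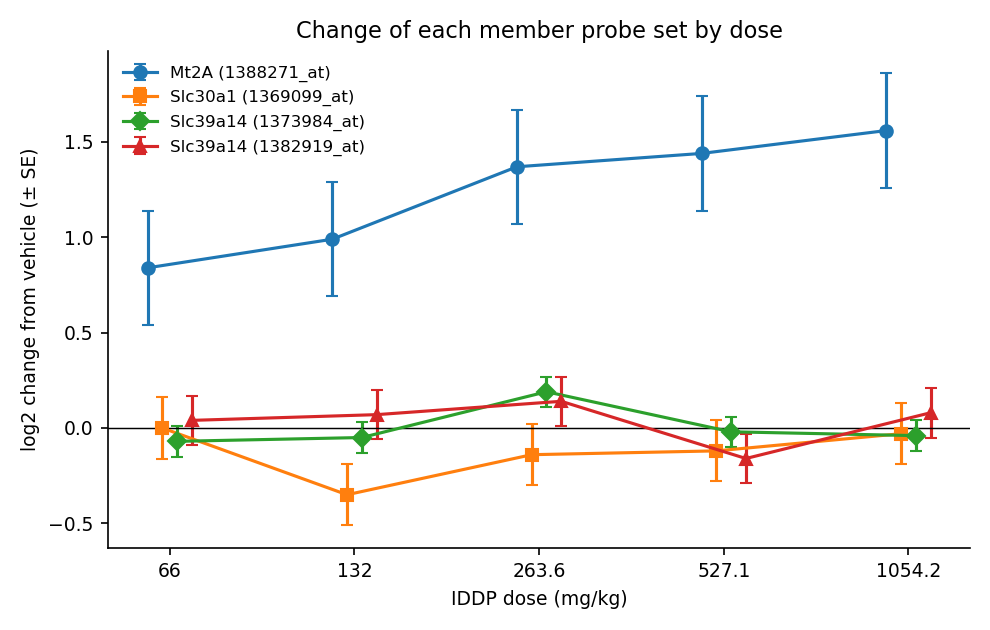
Difference of each dose group from the vehicle group on the log2 scale, with its standard error, for the 4 probe sets; the horizontal line marks no difference. Mt2A lies between 0.84 and 1.56 at every dose, and the other 3 probe sets stay between -0.35 and 0.19.

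Slc30a1, the zinc exporter, was dim: its probe set (1369099_at) was brighter than 19.8% of the tested probe sets, with a mean of 4.75 against a median of 6.37 over all probe sets. It read 4.99, 4.57, 5.17, 4.67 and 4.82 in vehicle rats. It read 4.93, 4.78 and 4.82 at 66 mg/kg, and 4.34, 4.40 and 4.75 at 132 mg/kg. The rats at 132 mg/kg included 2 that were below every vehicle rat. At the upper doses it read 5.09, 4.24 and 4.78 at 263.6 mg/kg, 4.75, 4.71 and 4.72 at 527.1 mg/kg, and 4.69, 5.04 and 4.70 at 1054.2 mg/kg. At 527.1 and 1054.2 mg/kg every rat lay inside the range of the vehicle rats.

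The differences from vehicle were 0.00, -0.35, -0.14, -0.12 and -0.03 in order of dose, each with a standard error of 0.16. The slope over dose rank was -0.02 ± 0.03 per step (SE). RNA quality moved with this probe set. The 3′ to 5′ difference averaged 1.64 in vehicle rats, 1.76 at 66 mg/kg, 2.31 at 132 mg/kg, 1.92 at 263.6 mg/kg, 1.69 at 527.1 mg/kg and 1.68 at 1054.2 mg/kg. Its correlation with Slc30a1 over the 20 arrays was -0.61. With it as a covariate the difference at 132 mg/kg was -0.17, and without the 2 arrays of highest 3′ to 5′ difference those at 132 and 263.6 mg/kg were -0.30 and 0.09. Its part in the level of Slc30a1 was otherwise not tested.

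Slc39a14, the importer, was bright and steady by its first probe set (1373984_at), which was brighter than 96.5% of those tested. It read 11.22, 11.28, 11.38, 11.36 and 11.35 in vehicle rats. It read 11.27, 11.20 and 11.29 at 66 mg/kg, and 11.26, 11.25 and 11.29 at 132 mg/kg, with 1 rat at 66 mg/kg just below the vehicle range. At 263.6 mg/kg it read 11.57, 11.57 and 11.38, so that 2 rats lay above every vehicle rat. It read 11.21, 11.41 and 11.26 at 527.1 mg/kg and 11.18, 11.22 and 11.42 at 1054.2 mg/kg, on both sides of the vehicle range. The differences from vehicle were -0.07, -0.05, 0.19, -0.02 and -0.04 in order of dose, each with a standard error of 0.08, and the slope was 0.00 ± 0.02 per dose step (SE). The spread among rats within a group was smaller than for nearly every other probe set: its residual standard deviation of 0.08 exceeded that of 2.35% of them.

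The second probe set of Slc39a14 (1382919_at) had its own level and gave differences of 0.04, 0.07, 0.14, -0.16 and 0.08 in order of dose, each with a standard error of 0.13. It read 7.68 to 8.05 in vehicle rats, and of the 15 dosed rats 2 lay above that range, at 8.28 and 8.31, 1 lay just above it, at 8.10, and 1 lay below it, at 7.51. Its group means were 7.90 in vehicle rats, 7.94 at 66 mg/kg, 7.96 at 132 mg/kg, 8.04 at 263.6 mg/kg, 7.74 at 527.1 mg/kg and 7.98 at 1054.2 mg/kg. Both probe sets had their highest mean at 263.6 mg/kg, but over the 20 arrays they correlated only at 0.25, and the difference at 66 and at 132 mg/kg, and that at 1054.2 mg/kg, had opposite signs in them. The second probe set correlated with the 3′ to 5′ difference at 0.63, against 0.06 for the first, and with that measure as a covariate its difference at 132 mg/kg was -0.14. Without the 2 arrays of highest 3′ to 5′ difference those at 132 and 263.6 mg/kg were -0.09 and 0.01, and the first probe set gave -0.04 and 0.15.

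The correlations among the 3 genes from rat to rat depended on the probe set. Over the 20 arrays, Mt2A correlated at -0.25 with Slc30a1 and at 0.14 with the first Slc39a14 probe set, and Slc30a1 with that probe set at -0.06. Spearman's rho for the same pairs was -0.14, -0.03 and -0.02. The second Slc39a14 probe set correlated with Mt2A at 0.20 and with Slc30a1 at -0.44, which was -0.34 by Spearman's rho and -0.53 by deviations from the group means. Slc30a1 and that probe set also correlated with the 3′ to 5′ difference, at -0.61 and 0.63, and its part in their correlation was not tested. These are descriptions, and the points share dose groups and normalisation.

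Mt1, the other metallothionein of liver, lies beside Mt2A, Mt3 and Mt4 on chromosome 19 in RefSeq GRCr8. Its probe set (1388267_a_at) read 6.94, 7.93, 7.92, 7.78 and 7.72 in vehicle rats, and the lowest of these was the rat that was lowest for Mt2A. It read 7.66, 8.25 and 8.10 at 66 mg/kg, and 7.50, 7.97 and 7.79 at 132 mg/kg. From 263.6 mg/kg upward every rat lay above every vehicle rat: it read 8.49, 8.15 and 8.11 at 263.6 mg/kg, 8.49, 8.17 and 8.11 at 527.1 mg/kg, and 8.25, 8.24 and 8.02 at 1054.2 mg/kg. The difference at 1054.2 mg/kg was 0.51 ± 0.19 (SE), with 8.17 ± 0.13 in those 3 rats and 7.66 ± 0.41 in the 5 vehicle rats (SD), and it did not pass the threshold (limma, adjusted p = 0.172). It did not pass at any other dose either. The trend over dose rank passed by a small margin, at 0.11 ± 0.03 per step (adjusted p = 0.0495), and was lost in 18 of 27 alternatives, including the omission of any vehicle rat. Without vehicle replicate 1 its adjusted p was 0.104.

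**Figure D3:**
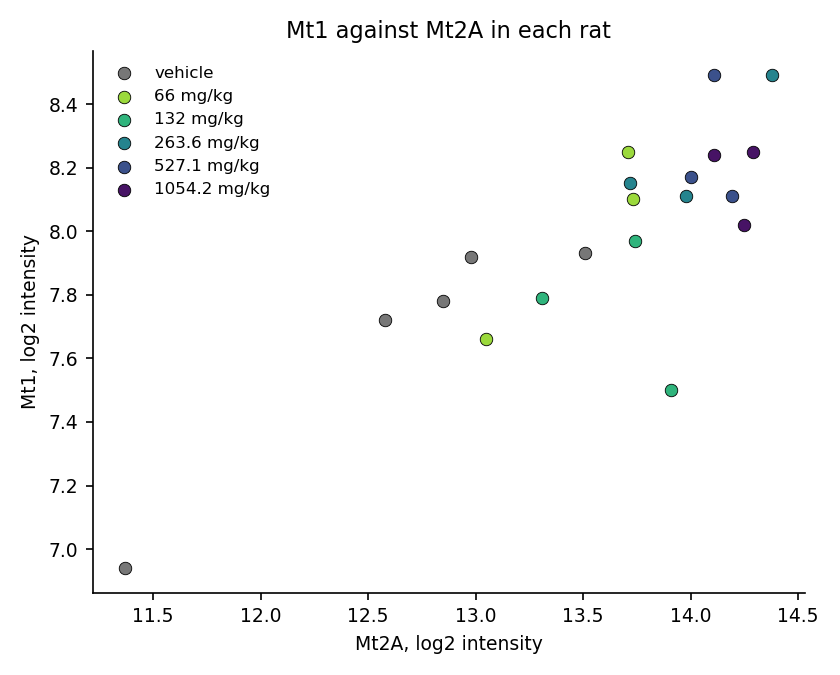
Log2 level of Mt1 against that of Mt2A in each of the 20 rats, coloured by dose group. The vehicle rat at 11.37 and 6.94 lies apart at the lower left, and the rats at 263.6 mg/kg and above lie to the upper right of all vehicle rats.

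Mt1 followed Mt2A across rats with a correlation of 0.83 over the 20 arrays and a Spearman's rho of 0.74. Leaving out the 2 rats farthest from the median of Mt2A, vehicle replicates 1 and 5, gave 0.64 over 18 arrays. After the mean of each dose group was taken off, the correlation was 0.78, and without vehicle replicate 1 it was 0.48 over 19 arrays, an alternative chosen after seeing the data. At 132 mg/kg the rat highest for Mt2A (13.91) was the lowest for Mt1 (7.50). The relatives expressed mainly outside the liver showed no such difference at 1054.2 mg/kg: Mt3, best known from brain, was at 0.01 ± 0.10, and Mt4, known from stratified epithelia, at -0.05 ± 0.12 (SE). Mtf1, which encodes the metal-sensing factor itself, was at 0.07 ± 0.10 by the brightest of its 3 probe sets.

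A probe set that the annotation gives several symbols, and that names no gene here, was the closest of all to Mt2A, with a correlation of 0.99 over the 20 arrays and 0.98 by deviations. Its group mean was 14.76 at 1054.2 mg/kg, against 13.81 in vehicle rats. Which transcripts it reads was not tested, and Mt1 was read from its 1 single-symbol probe set alone. Among all genes with 1 symbol, those most like Mt2A by Pearson's r over the 20 arrays were Reep5 at 0.86, Eci3 and Pmpca at 0.84, and Mt1 and Copz2 at 0.83. By deviations from the dose group means they were Acer1 at 0.82, Mt1 and Kcnd3 at 0.78, and Lect2 and Gnao1 at 0.77, so Mt1 was the 1 gene in both groups of 5. Of these, Acer1, Kcnd3 and Gnao1 were dim, with mean levels of 4.11, 4.43 and 3.8, and Lect2 had a Pearson's r of -0.34 with Mt2A. The 0.78 of Mt1 was 0.48 without vehicle replicate 1. Those most like Slc30a1 by Pearson's r were Nes at 0.80, Ubr4 and Usp47 at 0.79, and Socs5 and Exosc3 at 0.78. By deviations they were Apc at 0.84, Lrrc7 at 0.80, and Ubr4, Slco3a1 and Nes at 0.79, and 2 genes were in both. For the first probe set of Slc39a14 they were Serpina3n at 0.86, Synpo at 0.78, Gpr146 and Fgg at 0.74, and Tp53i13 at 0.73. By deviations they were Atp6v0e1 at 0.87, Dhx16 at 0.86, Pfkfb1 at 0.83, and Slc25a15 and Myom1 at 0.79, with 0 in both.

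Single genes of zinc handling outside the 3 passed the threshold at the upper doses, and 5 passed in the trend. Apart from the 3 members, 23 genes were measured: 3 metallothioneins and Mtf1, 8 zinc exporters of the Slc30a family and 11 zinc importers of the Slc39a family, each read by its brightest probe set. The number past the threshold was 0 at 66 and 132 mg/kg, 1 lower at 263.6 mg/kg, 1 higher at 527.1 mg/kg and 1 higher at 1054.2 mg/kg. One gene is 4.35% of the 23, against 0.428%, 1.68% and 3.3% of all tested probe sets at those doses. At an unadjusted p under 0.05 the numbers were 1, 4, 5, 6 and 7 in order of dose, and 7 is 30.4% of the 23, against 15.1% of all. The median difference over the 23 genes was 0.01, 0.06, 0.03, 0.04 and 0.01, close to 0 as it was over all tested probe sets. The trend passed for 3 higher genes (Mt1, Slc39a4 and Slc39a11) and 2 lower genes (Slc30a3 and Slc39a10), which together are 21.7% of the 23, against 5.05% of all. These shares are not like for like, since the 23 genes were read by their brightest probe sets and the shares of all include dim ones. How much of the gap comes from brightness was not tested, so no enrichment of the zinc genes is read from it.

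Slc39a11 (ZIP11), a zinc transporter of the ZIP family, was the gene that rose at single doses. It read 9.16, 9.43 and 8.90 at 527.1 mg/kg and 9.18, 9.03 and 8.78 at 1054.2 mg/kg, against 8.53, 8.58, 8.55, 8.39 and 8.39 in vehicle rats. All 6 of these dosed rats lay above every vehicle rat. The difference was 0.68 ± 0.11 at 527.1 mg/kg (SE, adjusted p = 0.0031) and 0.51 ± 0.11 at 1054.2 mg/kg (adjusted p = 0.0137), and the trend passed as well, at 0.12 ± 0.02 per step (adjusted p = 0.000936). The call at 1054.2 mg/kg was lost without replicate 1 or replicate 2 of that dose, with adjusted p of 0.0716 and 0.0645.

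Slc39a4 (ZIP4), the importer that takes up dietary zinc in the intestine, had group means of 9.01 in vehicle rats, 9.02 at 66 mg/kg, 9.08 at 132 mg/kg, 9.26 at 263.6 mg/kg, 9.40 at 527.1 mg/kg and 9.48 at 1054.2 mg/kg. All 3 rats at 1054.2 mg/kg lay above every vehicle rat. Its trend of 0.10 ± 0.02 per step rose (SE, adjusted p = 0.00618), whereas the difference of 0.47 ± 0.13 at 1054.2 mg/kg did not pass (adjusted p = 0.0578). That difference passed in 7 of 28 alternatives (adjusted p 0.00389 to 0.0481), among them the RNA quality covariate, at 0.0287, and the omission of vehicle replicate 1, at 0.043. Slc39a10 (ZIP10), an importer of the plasma membrane, read 5.19, 5.64 and 5.50 at 263.6 mg/kg, against 6.46, 6.20, 6.02, 6.09 and 5.94 in vehicle rats. It fell there by 0.70 ± 0.15 (SE, adjusted p = 0.0376), with no overlap between the groups, in a probe set below the median brightness. That call was lost in 11 of 27 alternatives, with adjusted p of 0.052 to 0.176, among them the omission of any of the 3 dosed rats or of vehicle replicates 1 to 4. Slc30a3 (ZnT3), best known for loading zinc into synaptic vesicles, fell over dose rank by 0.09 ± 0.03 per step (SE, adjusted p = 0.0367), and was at 7.70 ± 0.28 at 1054.2 mg/kg and 8.16 ± 0.16 in vehicle rats (SD, n = 3 and 5). The trend of Slc30a3 was lost in 9 of 27 alternatives (adjusted p 0.0545 to 0.143), among them the omission of any of vehicle replicates 2 to 5. That of Slc39a10 was lost in 19 of 26 (adjusted p 0.0545 to 0.124), among them the omission of any vehicle rat.

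**Figure D4:**
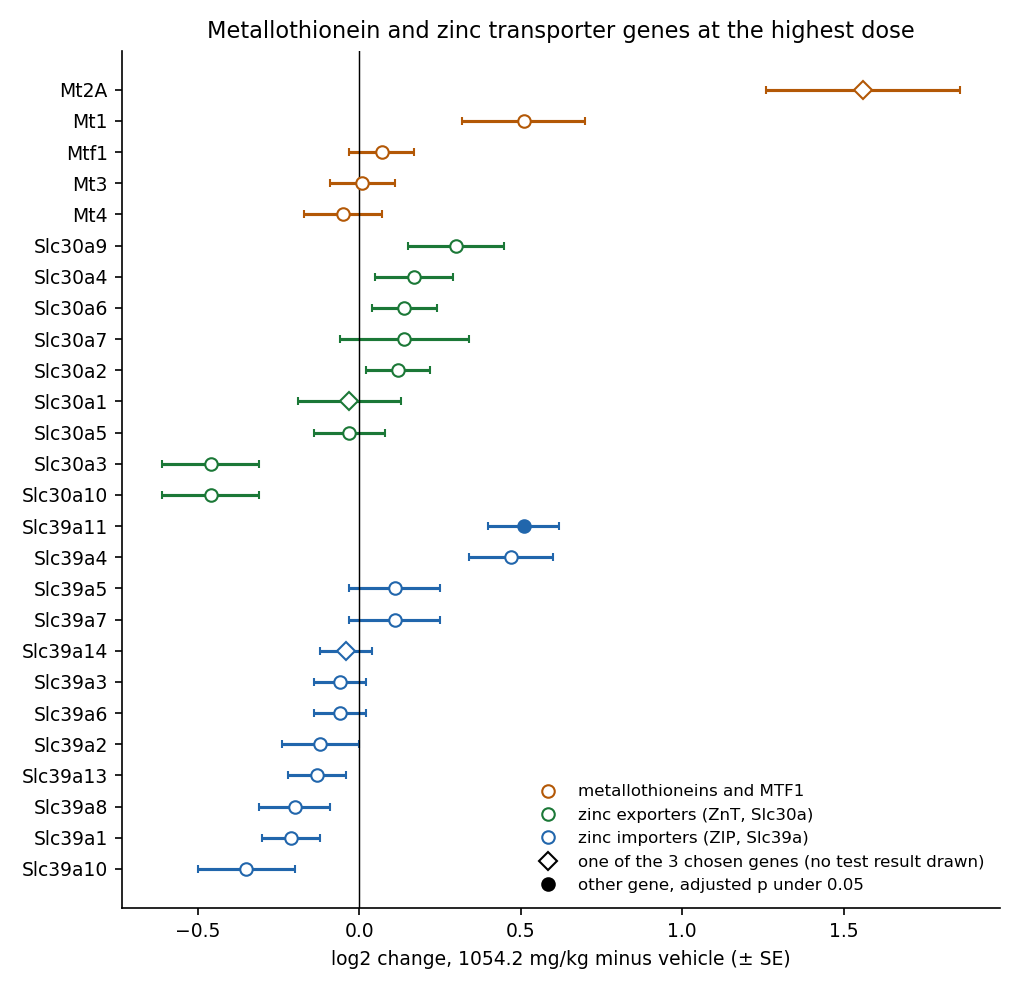
Log2 difference between 1054.2 mg/kg and vehicle, with its standard error, for each gene of the metallothionein, zinc exporter and zinc importer lists; diamonds are the 3 chosen genes, drawn without a test result, and a filled point is another gene past the threshold. Mt2A lies farthest to the right at 1.56, and Slc39a11 at 0.51 is the filled point.

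Other pathways known to act on metallothionein genes or to use metals were read at 1054.2 mg/kg, where 3.3% of all tested probe sets passed. Of 18 genes of the NRF2 oxidative stress response, 10 rose and 0 fell, with a median difference of 0.76. Among them Nqo1, a quinone reductase, rose by 1.62 ± 0.18 (SE, adjusted p = 2.9e-05), Hmox1, haem oxygenase 1, by 1.30 ± 0.23 (adjusted p = 0.00302), and Me1, malic enzyme, by 1.23 ± 0.20 (adjusted p = 0.000916). Slc7a11, the cystine importer, rose by 1.20 ± 0.30 (adjusted p = 0.0303), a call lost in 6 of 27 alternatives, among them the omission of replicate 3 at 1054.2 mg/kg (adjusted p = 0.242) or of vehicle replicate 1, 2, 4 or 5. At 263.6 mg/kg 1 of the 18 genes passed, and at 527.1 mg/kg 4 did, all higher, with medians of 0.22 and 0.33. Over all tested probe sets 0.428% and 1.68% passed at these doses.

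Of 7 genes in a list of others linked to MTF1, 1 rose and 0 fell at 1054.2 mg/kg, with a median of -0.08. The list includes Slc39a10, which is also counted among the zinc importers above. The riser was Gclc, which makes the precursor of glutathione and stands in the NRF2 list too, at 0.90 ± 0.13 (SE, adjusted p = 0.000281). Of 16 genes known to respond to glucocorticoids, 1 rose and 1 fell, with a median of -0.01. Ddit4, an inhibitor of mTORC1 signalling, rose by 1.59 ± 0.31 (adjusted p = 0.00602), which was lost without replicate 3 at 1054.2 mg/kg (adjusted p = 0.0596). Sgk1, a kinase, fell by 1.38 ± 0.35 (adjusted p = 0.0324), which was lost in 6 of 28 alternatives, among them the omission of any rat at 1054.2 mg/kg or of vehicle replicate 2 or 3. Of 25 genes of the interleukin-6 and acute phase response, to which Slc39a14 is linked in mouse, 2 rose and 0 fell, with a median of -0.04. These were Il1r1, a receptor of interleukin-1, at 0.88 ± 0.24 (adjusted p = 0.0441), and Orm1, an acute phase plasma protein, at 0.69 ± 0.19 (adjusted p = 0.0448). Both calls lay at the margin. That of Il1r1 was lost in 12 of 28 alternatives (adjusted p 0.0523 to 0.242), among them the omission of vehicle replicate 1, 2, 3 or 4. That of Orm1 was lost in 11 (adjusted p 0.0501 to 0.175), among them the omission of any rat at 1054.2 mg/kg. At 263.6 mg/kg, where both Slc39a14 probe sets had their highest mean, 0 of the 25 genes passed, against 0.428% of all tested probe sets. There 4 of the 25 had an unadjusted p under 0.05 in limma, against 11.9% of all, with a median difference of 0.05.

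Of 18 genes of iron handling, 1 fell and 0 rose, with a median of -0.02. It was Steap3, a ferrireductase of endosomes, at -0.92 ± 0.11 (SE, adjusted p = 6.9e-05). Of 12 genes of copper handling, 0 passed in limma and 1 had an unadjusted p under 0.05, with a median of 0.07, and the largest difference was that of Xiap at 0.67 ± 0.27 (adjusted p = 0.223). Of 17 zinc enzymes of liver, 3 rose and 2 fell, with a median of 0.08. The alcohol dehydrogenases Adh7 and Adh4 rose by 0.89 ± 0.18 (adjusted p = 0.00731) and 0.71 ± 0.15 (adjusted p = 0.0122). The peptidase Mme fell by 1.21 ± 0.31 (adjusted p = 0.0348) and the carbonic anhydrase Car1 fell by 0.64 ± 0.17 (adjusted p = 0.0456). Each of these 4 calls was lost without at least 1 rat at 1054.2 mg/kg: Adh7 without replicate 2 or 3, Adh4 without replicate 3, Mme without replicate 1 or 3, and Car1 without any of them, with adjusted p of up to 0.0663, 0.0926, 0.17 and 0.177. Over all settings Mme was lost in 6 of 28 alternatives, among them the pairwise fit and the omission of vehicle replicate 1, 3 or 4, and Car1 in 14 of 27, among them the omission of any vehicle rat. The other zinc enzyme that rose was Sord, at 0.45 ± 0.08 (SE, adjusted p = 0.00325), the smallest adjusted p of the list. Its alternatives are not given here.

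The tissue was checked against its label: 10 of 10 hepatocyte markers were above the median of the array, at 9.67 to 15.34, and 0 of 10 passed the threshold in limma at 1054.2 mg/kg, with 0 at an unadjusted p under 0.05. Some markers of other liver cells differed from vehicle at 1054.2 mg/kg, where 3.3% of all tested probe sets passed. There 6 of 9 Kupffer cell and macrophage markers, 4 of 11 stellate cell markers and 2 of 9 endothelial markers fell. Of 7 cholangiocyte markers, 1 rose and 0 fell. Of 4 erythroid markers 0 passed, with a median difference of -0.49, and 2 had an unadjusted p under 0.05 in limma, against 15.1% of all tested probe sets. The median difference of the Kupffer cell list did not follow the order of dose, at -0.21, -0.59, -0.28, -0.34 and -0.54 from the lowest dose to the highest. The mean shift of the Kupffer cell list was -0.64 to -0.52 in those rats and -0.25 to 0.25 in vehicle rats. In bulk tissue, fewer cells of a type and less RNA per cell cannot be told apart, and the part of these cells in the values of the 3 genes was not tested. Of the pancreas markers, 8 of 10 were below the median of the array, as were 4 of 5 markers of intestine and kidney. The pancreas marker Cela1 was bright, with a mean level of 10.33. It was the 1 of 10 past the threshold at 1054.2 mg/kg, at -0.80 ± 0.15 (SE, limma, adjusted p = 0.00482).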

How the data were processed

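Liver RNA of 20 rats was labelled from 100 ng and read on Affymetrix arrays. The deposited values are log2 intensities of probe sets, and RMA is named in the submitters' processing notes. Its version and the set of arrays it was run on were not given in the sources used here. Array medians lay between 6.31 and 6.41, and the number of rats (5 vehicle, 3 per dose) limits the precision. Of 31099 probe sets, 57 controls were left out, with no filter on brightness. Of the 31042 tested, 20826 carried 1 symbol, 436 several and 9780 are unnamed here.

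A model with a separate mean for every dose, over the 20 arrays, was fitted in limma 3.58.1 (R 4.3.3), with empirical Bayes moderation (14 residual and 5.75 prior degrees of freedom). The trend was fitted on dose rank. All tests are two-sided, with the Benjamini-Hochberg adjustment over the 31042 probe sets and a threshold of 0.05. Each p-value sets a difference or slope against the spread between rats, pooled over the groups. It does not describe the spread within any single group. The script was tested on simulated data.

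The members and gene lists were chosen with earlier results of these data known. For a gene with several probe sets, the brightest stood for it. The shares of all tested probe sets printed beside the gene lists include dim probe sets and are not matched to the lists in brightness. Named were the members, every zinc or metallothionein gene past the threshold, up to 4 of the largest changes past the threshold at 1054.2 mg/kg in each other list (or the largest where 0 passed), and the 5 genes most like each member. Mt3, Mt4, Mtf1, Sord and Cela1 were named after their values were seen. Replicate numbers were not taken to pair the rats. Over 45 pairs with the same number, deviations from group means correlated at -0.35 to 0.47, with 14 over 0.1. Rats with different numbers were not compared, so whether a number marks a shared batch was not tested. Alternatives were other normalisations, a brightness filter, pairwise fits, an RNA quality covariate, a replicate block, array weights and leaving out each rat. Leaving out the arrays of highest 3′ to 5′ difference was chosen after seeing the data. Promoters were read from RefSeq GRCr8 with Python 3.11.15.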

Additional observations from a re-analysis of the deposited data

Results flagged for a closer look

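Mt1 in the vehicle rats had 1 rat far from the others: replicate 1 read 6.94 and the other 4 read 7.72 to 7.93 on the log2 scale. The gap between that rat and the nearest other was 0.785 of the range of the group, above the critical value of 0.71 for 5 samples (Dixon's test at the 95% level). The same rat was lowest for Mt2A, where its gap was 0.566 of the range. Of 24 probe sets tested in this way 1 was over the critical value, and chance alone gives about 1 in 20.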

How the results depend on the processing

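Over the alternatives tried, no value past the threshold changed sign, and Mt2A stayed above vehicle at every dose. It was past the threshold at 1054.2 mg/kg in 28 of 28 alternatives and at 527.1 mg/kg in 24 of 28, the exceptions being the replicate block and the omission of any rat at 527.1 mg/kg. At 263.6 mg/kg, where it missed the threshold, it passed in 6 of 28. Since Mt2A was chosen from these contrasts, these counts describe the settings and are no support for the change. The other 3 member probe sets passed in none of the alternatives run. Slc30a1 was too dim to be in the fit restricted to brighter probe sets.

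Counts of probe sets past the threshold depended on the setting. At 66 mg/kg (2) the count was 11 in the pairwise fit and 12 with array weights. At 132 mg/kg (21) it was 50 with quantile normalisation repeated, 46 without dim probe sets, 37 with array weights and 11 without the 2 arrays of highest 3′ to 5′ difference. At 263.6 mg/kg (133) it was 75 with medians centred, 221 with quantile normalisation repeated, 885 with array weights and 56 without those 2 arrays. At 527.1 mg/kg (520) it was 826 in the pairwise fit, 839 with the RNA quality covariate and 1188 with array weights, which gave 6439 at 1054.2 mg/kg (1024) and 2681 in the trend (1569). With the replicate block the counts were 78 at 263.6, 283 at 527.1 and 614 at 1054.2 mg/kg, and 930 in the trend. Whether replicate numbers mark a shared batch was not tested.

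Among the 23 other zinc genes, the 1 at 263.6 mg/kg became 0 with medians centred, without dim probe sets, with the replicate block or without the 2 arrays, and 3 with array weights. The 1 at 1054.2 mg/kg became 2 with medians centred, quantile normalisation, the brightness filter or the pairwise fit, 3 without the 2 arrays, 4 with the RNA quality covariate, 7 with array weights and 0 with the replicate block, which left 1 of 5 in the trend. The trend of Slc39a4 was among those lost with the block (adjusted p = 0.0559). Array weights gave 0.099 at 263.6 mg/kg and 0.062 at 1054.2 mg/kg for the first Slc39a14 probe set. The RNA quality covariate gave -0.14 at 132 mg/kg for the second.

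Leaving out 1 rat at a time gave 0 to 3 probe sets at 66 mg/kg, 6 to 1482 at 132 mg/kg (the highest without replicate 3 of that dose), 38 to 260 at 263.6 mg/kg, 212 to 646 at 527.1 mg/kg, 405 to 1219 at 1054.2 mg/kg and 1092 to 1919 in the trend. For the zinc genes it gave 0 to 2 at 132 mg/kg, 0 to 1 at 263.6 mg/kg, 0 to 2 at 1054.2 mg/kg and 2 to 6 in the trend. The causes were not tested.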
